A study of Mus musculus with 14 samples.

Results

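The erythroid transcription regulators described here are 8 mouse genes, Gata1, Klf1, Nfe2, Zfpm1, Ldb1, Gfi1b, Bcl11a and Sox6, among the 52550 genes of the count table. They were listed by name for their known roles in red cell formation, and the rule uses no measured value. Of the 8 genes, 7 had counts in the table, and Zfpm1 was listed at 0 in every library. Total RNA depleted of ribosomal RNA was sequenced from 14 samples of C57BL/6 mouse cells, to ask how a leukemia fusion gene and the loss of Mir139 change the cells. Hematopoietic stem and progenitor cells (HSPCs) enriched from femur and tibia marrow gave 4 wild-type (WT) and 4 Mir139 knockout (Mir139KO) samples, and 6 samples were of MLL-AF9 cells. The mice were 8 to 20 weeks old.

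MLL-AF9 is the fusion of the MLL gene with AF9 found in acute myeloid leukemia. The MLL-AF9 cells were HSPCs of WT genotype, transduced with pMSCV-MLL-AF9-neo (replicates 1 to 3) or pMSCV-MLL-AF9-puro (replicates 4 to 6). They were expanded with SCF, GM-CSF, IL-6 and IL-3, without erythropoietin among the listed factors, selected with neomycin or puromycin, and replated in methylcellulose before lysis. The labels give direct lysis and expansion as alternatives without naming samples, and HSPCs were taken as lysed after isolation. A culture lacking the fusion gene was not among the samples, so that fusion gene and culture cannot be told apart. The labels do not state whether samples of a group came from separate mice or cultures, and p-values measure only the spread between these samples, which may be technical. MLL-AF9 replicates 4 and 6 were the most alike MLL-AF9 pair, with a correlation of log2 levels over genes of 0.995. The next was 0.981, for replicates 2 and 3. Replicates 4 and 6 may therefore not be independent. In bulk RNA, fewer cells of a type and less RNA per cell cannot be told apart.

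GATA1 is the zinc finger factor that most erythroid and megakaryocyte genes depend on. It binds DNA beside the TAL1 complex, in which LDB1 joins distant enhancers to promoters, and works through its cofactor FOG1, the product of Zfpm1. KLF1 activates globin, heme and membrane genes at CACCC elements, and NFE2 binds the globin locus with a small MAF partner. GFI1B recruits the KDM1A and RCOR1 corepressor, and BCL11A and SOX6 repress embryonic and fetal globin genes, with BCL11A also needed for B cell and dendritic cell development. GATA1, FOG1, GFI1B and NFE2 also serve megakaryocytes, and GATA1 serves mast cells, basophils and eosinophils.

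Gata1, Klf1 and Gfi1b gave the largest differences between the groups, and the 250 bases before their RefSeq transcription starts (build GRCm38.p6) are shown for that reason. They are written 5′ to 3′ on the strand of each gene, at chrX:7967911-7968160 (minus strand) for Gata1, chr8:84901732-84901981 (plus strand) for Klf1 and chr2:28621983-28622232 (minus strand) for Gfi1b. Capitals mark matches of the GATA motifs AGATAA and TGATAA and of the KLF motif CACCC in either orientation.
Gata1: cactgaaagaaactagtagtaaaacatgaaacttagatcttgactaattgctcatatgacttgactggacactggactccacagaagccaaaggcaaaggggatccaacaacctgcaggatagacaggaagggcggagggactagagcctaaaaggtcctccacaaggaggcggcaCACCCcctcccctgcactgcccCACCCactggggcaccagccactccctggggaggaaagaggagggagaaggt
Klf1: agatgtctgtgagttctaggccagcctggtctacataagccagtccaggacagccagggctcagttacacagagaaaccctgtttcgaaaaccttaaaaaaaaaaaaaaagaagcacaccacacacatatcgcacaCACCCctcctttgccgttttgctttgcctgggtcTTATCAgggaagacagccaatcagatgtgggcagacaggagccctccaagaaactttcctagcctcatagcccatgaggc
Gfi1b: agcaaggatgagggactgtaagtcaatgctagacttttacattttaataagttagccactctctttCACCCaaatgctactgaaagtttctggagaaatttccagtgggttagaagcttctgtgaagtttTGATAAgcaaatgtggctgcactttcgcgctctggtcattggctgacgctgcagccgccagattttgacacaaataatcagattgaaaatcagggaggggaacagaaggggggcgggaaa

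A GATA match was at position -80 of Klf1 and position -120 of Gfi1b, counted from the last base before the start, and Gata1 held none in this window. CACCC matched at 2 places before Gata1, at -74 and -52, and at 1 place each before Klf1 (-114) and Gfi1b (-184). Of the 32536 windows of the same length in the table, 16.5% held a GATA match and 52.1% held a CACCC match. The table held windows for 7 of the 8 genes, with 3 for Ldb1, 6 for Sox6 and none for Nfe2. Zfpm1 (3 matches), Bcl11a (2 matches) and each of the 3 Ldb1 windows held CACCC, and GATA matches fell in 1 of the 3 Ldb1 and 1 of the 6 Sox6 windows. TGAGTCA, the NF-E2 motif, held by 4.45% of all windows, and AATCAC, the GFI motif, held by 9.16%, matched none of them. TGACCA, a BCL11A motif held by 11.4% of all windows, matched once, at -88 of Gfi1b, and AACAAT, a SOX motif held by 9.35%, matched in 1 Sox6 window only. Both strands were searched, the GATA motifs differ only in their first letter, and a match is a string of letters, not a site shown to be bound.

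Total counts ran from 35016668 to 45877994 per library. Levels are given as CPM, counts divided by the TMM-scaled library size and brought to a common depth (cpm of edgeR), on which 3 counts, taken as the smallest level seen, came to 0.0545 to 0.129 CPM. A noncoding RNA gene, Gm26917, took 17 to 35.4% of the counts in HSPC libraries and 7.55 to 10.4% in MLL-AF9 libraries. It lay under 25% in WT replicates 1 and 2 and Mir139KO replicates 2 and 3, and over 25% in the other 4 HSPC libraries, so that each genotype holds both kinds. TMM factors were 0.97 to 1.11 in the former, 0.615 to 0.66 in the latter and 1.18 to 1.39 in MLL-AF9 libraries. The progenitor markers Kit (198 ± 28.6 CPM) and Cd34 (39.8 ± 5.8 CPM) were present in WT HSPCs (SD, n = 4). The other stem and progenitor markers listed averaged from 0.895 CPM (Procr) to 164 CPM (Gata2) there. Markers of other cells were higher, with the myeloid gene Mpo at 5070 CPM and the B cell gene Ighm at 2080 CPM.

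Zfpm1 (ENSMUSG00000049577, chromosome 8, 122282141 to 122337251, plus strand, GRCm38) could not be measured. All 55111 bases of the gene lie inside Gm20388, an annotated gene of 4434882 bases on the same strand (119910841 to 124345722), which had 73830 counts over the 14 libraries. The 207 genes of the table inside Gm20388, 71 of them protein-coding, were all listed at 0. Of the 12113 genes that lie inside another gene on either strand, 99.55% were listed at 0 in all 14 libraries, against 29.01% of the 40290 that do not. The zeros of Zfpm1 therefore say nothing about its expression. Genes at or near 0 throughout in the lists below may be affected likewise, and their values are not read as absence of expression. Among the other regulators, Bcl11a shares 41.1% of its exon bases with genes on the opposite strand and Ldb1 shares 7.1%. The exons of Gata1, Klf1, Nfe2, Gfi1b and Sox6 lie outside other genes, as far as release M21 of the GENCODE annotation shows.

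In HSPCs, Gata1, Klf1, Gfi1b, Nfe2 and Ldb1 were well expressed and Bcl11a and Sox6 less so, and in MLL-AF9 cells Gata1, Klf1 and Gfi1b were nearly absent whereas Nfe2 and Ldb1 remained. All 7 measured regulators were called lower in MLL-AF9 cells than in WT HSPCs, with log2 fold changes from -8.83 for Gfi1b to -1.43 for Nfe2. A gene was called at a Benjamini-Hochberg adjusted p under 0.05 over all genes tested by the edgeR quasi-likelihood test. Of 17077 genes tested, 62.2% were called and 29.4% were called lower, so that most genes differ between these groups. The median log2 fold change was -2.66 over the 7 regulators and 0.14 over all genes tested. For 6 of the 7, every MLL-AF9 library lay under every WT library, which held for 24.4% of all genes tested.

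**Figure D1:**
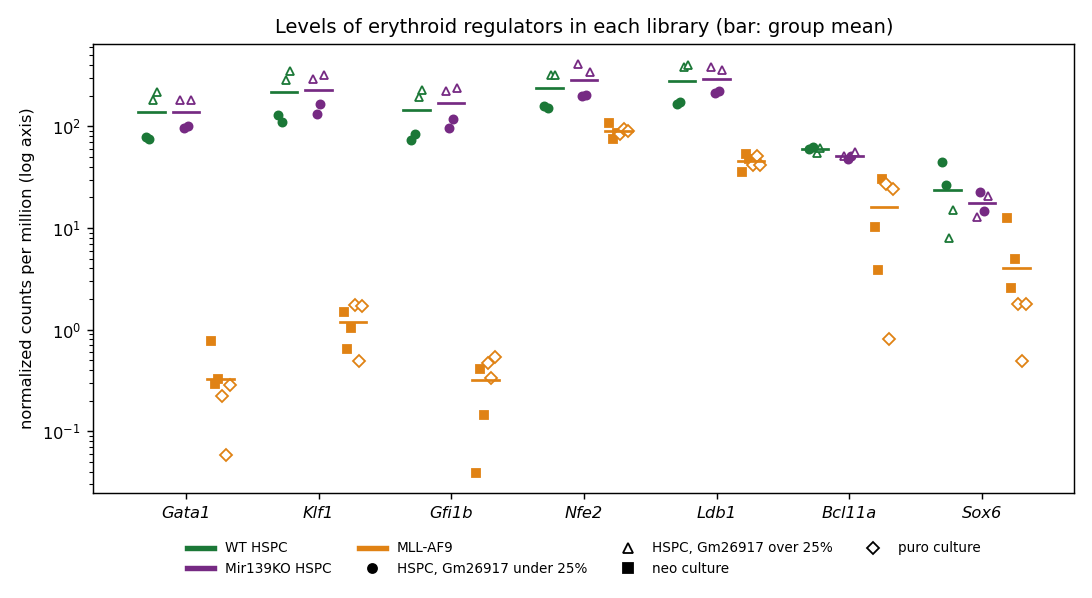
CPM on a log axis for 7 regulators in 4 WT HSPC, 4 Mir139KO HSPC and 6 MLL-AF9 libraries, with a bar at each group mean and symbols for the Gm26917 share of HSPC libraries and the vector of MLL-AF9 cultures. Gata1, Klf1 and Gfi1b lie under 2 CPM in all 6 MLL-AF9 libraries, Nfe2 and Ldb1 between 35.6 and 107 CPM, and Bcl11a and Sox6 spread widely among them.

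Gata1 (ENSMUSG00000031162, chromosome X, 7959260 to 7978071, minus strand), the central activator, measured 78.4, 75.8, 181 and 220 CPM in WT HSPC replicates 1 to 4. In Mir139KO HSPC replicates 1 to 4 it measured 180, 97.4, 101 and 180 CPM. The 6 MLL-AF9 libraries held 0.779, 0.295, 0.327, 0.222, 0.0588 and 0.285 CPM, from 40, 15, 18, 11, 3 and 15 counts. The lowest HSPC value was 97.3-fold above the highest MLL-AF9 value, and replicate 1 was the highest of the MLL-AF9 libraries. Its value had an exact 95% Poisson interval of 0.557 to 1.06 CPM, above the interval of every other culture, which covers counting error only. Gata1 fell by 8.72 ± 0.64 on the log2 scale between WT HSPCs and MLL-AF9 cells (SE, edgeR adjusted p = 1.6e-06).

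Klf1 (ENSMUSG00000054191, chromosome 8, 84901928 to 84905291, plus strand), the activator of adult globin and red cell membrane genes, measured 130, 111, 283 and 348 CPM in WT HSPCs. It measured 290, 132, 167 and 320 CPM in Mir139KO HSPCs, and 1.5, 0.649, 1.04, 1.74, 0.49 and 1.69 CPM in MLL-AF9 replicates 1 to 6. Replicates 2 and 5 were the lowest of the 6 cultures. The log2 fold change of Klf1 in MLL-AF9 cells was -7.53 ± 0.52 (SE, edgeR adjusted p = 1.03e-06).

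Gfi1b (ENSMUSG00000026815, chromosome 2, 28609450 to 28621982, minus strand), the repressor that pairs with KDM1A, measured 72.7, 84.6, 195 and 228 CPM in WT HSPCs and 221, 96, 117 and 240 CPM in Mir139KO HSPCs. In the 6 MLL-AF9 cultures it measured 0.039, 0.413, 0.145, 0.465, 0.333 and 0.532 CPM, from 2, 21, 8, 23, 17 and 28 counts. Replicate 1, the highest for Gata1, was the lowest for Gfi1b. Gfi1b decreased by 8.83 ± 0.65 on the log2 scale (SE, edgeR adjusted p = 1.65e-06). The level of Gfi1b in replicate 1, 2 counts, is under the 3 counts taken as the smallest level seen.

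Nfe2 (ENSMUSG00000058794, chromosome 15, 103248212 to 103258403, minus strand), the globin locus factor, stayed expressed in MLL-AF9 cells. It measured 160, 151, 321 and 323 CPM in WT HSPCs, 407, 197, 205 and 343 CPM in Mir139KO HSPCs, and 107, 75.8, 85.1, 84.8, 94.1 and 89.5 CPM in MLL-AF9 replicates 1 to 6. The cultures differed from each other by at most 1.41-fold, and none reached the lowest HSPC library. The log2 fold change against WT HSPCs was -1.43 ± 0.28 (SE, edgeR adjusted p = 0.00087).

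Ldb1 (ENSMUSG00000025223, chromosome 19, 46031570 to 46045214, minus strand), the looping cofactor, measured 166, 174, 386 and 402 CPM in WT HSPCs and 386, 214, 221 and 361 CPM in Mir139KO HSPCs. In MLL-AF9 replicates 1 to 6 it measured 35.6, 53.2, 47.9, 42.1, 50.7 and 41.5 CPM, a spread of 1.49-fold. All 6 cultures lay under all 8 HSPC libraries, and Ldb1 decreased by 2.66 ± 0.30 on the log2 scale against WT HSPCs (SE, edgeR adjusted p = 2.89e-05).

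Bcl11a (ENSMUSG00000000861, chromosome 11, 24078056 to 24174123, plus strand), a repressor of fetal globin, had the smallest ratio of highest to lowest value of the 7 regulators in HSPCs and the largest in MLL-AF9 cells. It measured 60.5, 62.1, 54.5 and 60.8 CPM in WT HSPCs and 51.1, 47.8, 51.1 and 55.5 CPM in Mir139KO HSPCs, a range of 1.3-fold over 8 libraries. The MLL-AF9 cultures measured 10.3, 3.9, 30.4, 27.4, 0.804 and 24.1 CPM, a range of 37.8-fold. Replicates 3, 4 and 6 were close together, replicates 2 and 5 were far below them, and both vectors had cultures at either end. The log2 fold change against WT HSPCs was -1.89 ± 0.70 (SE, edgeR adjusted p = 0.0311). That call was lost without MLL-AF9 replicate 1 (-1.78, adjusted p = 0.0617), MLL-AF9 replicate 2 (-1.69, adjusted p = 0.0501), WT replicate 1 (-1.89, adjusted p = 0.0531) or WT replicate 4 (-1.91, adjusted p = 0.0531). It was also lost in 4 other settings, among them total counts in place of TMM scaling (-1.28, adjusted p = 0.17), and the direction held in all 25 settings tried.

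Sox6 (ENSMUSG00000051910, chromosome 7, 115470872 to 116038796, minus strand), the partner of BCL11A in globin repression, measured 44.4, 26.7, 8.01 and 15 CPM in WT HSPCs and 12.7, 22.4, 14.6 and 20.6 CPM in Mir139KO HSPCs. The MLL-AF9 cultures measured 12.4, 2.54, 5, 1.78, 0.49 and 1.77 CPM. Replicate 1 lay above the lowest WT library, so that these groups overlapped, while all 6 cultures lay under the Mir139KO libraries. Sox6 had a log2 fold change of -2.57 ± 0.74 against WT HSPCs (SE, edgeR adjusted p = 0.00964). Against the WT libraries over 25% Gm26917 alone it was -1.63 and not called (adjusted p = 0.149).

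**Figure D2:**
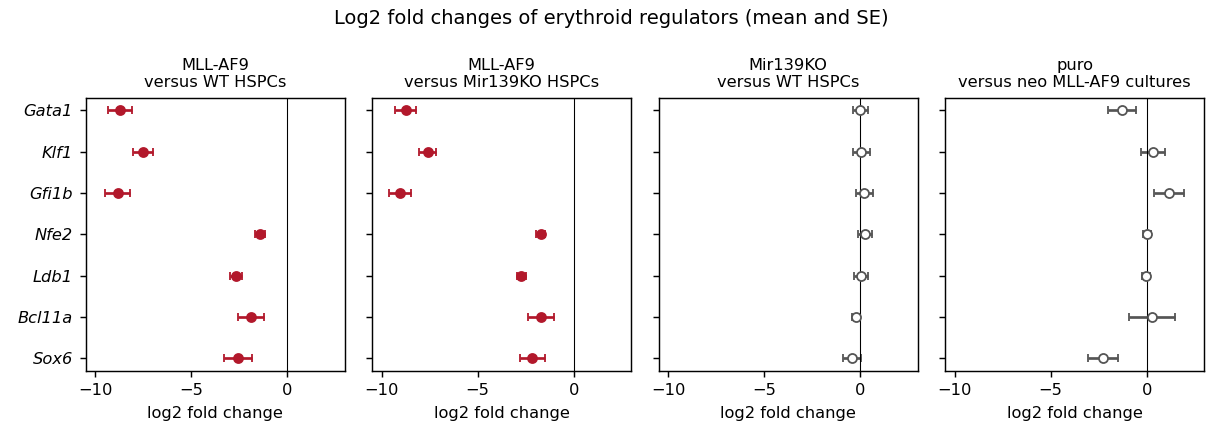
Log2 fold changes (points) and SE (bars) of 7 regulators in the 4 comparisons, filled where the adjusted p was under 0.05. All 7 lie left of 0 and are filled in both comparisons of MLL-AF9 cells, and none is filled between the HSPC genotypes or between the vectors.

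Compared with Mir139KO HSPCs, the same MLL-AF9 libraries gave a like picture, and the comparisons share those 6 libraries. All 7 measured regulators were called lower, and all 7 groups did not overlap. Of 16953 genes tested, 69.3% were called, 31.9% were called lower, and 28.2% had every MLL-AF9 library under every Mir139KO library. The log2 fold changes were -8.74 for Gata1, -7.61 for Klf1, -9.05 for Gfi1b, -2.73 for Ldb1, -1.71 for Nfe2, -2.16 for Sox6 and -1.69 for Bcl11a. The adjusted p of Bcl11a was 0.0418 (edgeR), and the call was lost without MLL-AF9 replicate 1 (-1.57, adjusted p = 0.0768) or 2 (-1.48, adjusted p = 0.0634). It was likewise lost without Mir139KO replicate 1 (-1.71, adjusted p = 0.078), 2 (-1.73, adjusted p = 0.0658), 3 (-1.71, adjusted p = 0.0691) or 4 (-1.67, adjusted p = 0.0808). With total counts only Bcl11a was at -0.93 (adjusted p = 0.283) and Sox6 at -1.45 (adjusted p = 0.0909).

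Scaling moved the sizes but not the directions of the differences. With total counts only, the median over all genes tested against WT HSPCs rose by 0.55 to 0.69 on the log2 scale, and the share of calls that were higher went from 52.7% to 68.3%. Against Mir139KO HSPCs that share went from 53.9% to 71.4%. The log2 fold change against WT HSPCs with total counts only was -7.95 for Gata1 in place of -8.72. For Nfe2 it was -0.71 in place of -1.43, and for Ldb1 -1.93 in place of -2.66. Relative to the median over all genes tested, which takes out a shift common to all genes, Gata1 was at -8.64 in place of -8.85. On that measure Nfe2 was at -1.40 in place of -1.57, and Ldb1 at -2.62 in place of -2.80. A correction for GC content gave -7.87 for Gata1, -6.52 for Klf1, -7.86 for Gfi1b, -1.69 for Ldb1 and -0.86 for Nfe2, with all 5 still called. These 5 were called against WT HSPCs in all 25 and against Mir139KO HSPCs in all 24 settings tried.

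Levels of different genes were compared as CPM per kb of the exon bases that lie outside other genes. The counted feature is not stated. If whole gene spans were counted, exon length is not the right divisor, and the order of genes given here may not hold. Over the 8 HSPC libraries the mean was 146 ± 63.4 for Klf1, 88.1 ± 32.3 for Nfe2, 85.7 ± 38.8 for Gfi1b, 67.5 ± 24.2 for Ldb1, 57.1 ± 23.2 for Gata1, 7.14 ± 0.68 for Bcl11a and 1.39 ± 0.76 for Sox6 (SD, n = 8, CPM per kb). The ranges of the first 5 genes overlapped from each to the next, although Klf1 was above Nfe2, Gfi1b above Ldb1 and Ldb1 above Gata1 within all 8 libraries. Nfe2 and Gfi1b changed places in 2 of the 8. Gata1 and Bcl11a, and Bcl11a and Sox6, did not overlap.

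In the 6 MLL-AF9 libraries the order was different. Nfe2 led with 29.9 ± 3.48 CPM per kb, followed by Ldb1 with 10.6 ± 1.54, Bcl11a with 2.08 ± 1.64, Klf1 with 0.774 ± 0.352, Sox6 with 0.269 ± 0.295, Gfi1b with 0.176 ± 0.105 and Gata1 with 0.134 ± 0.0988 (SD, n = 6, CPM per kb). Nfe2 did not overlap Ldb1 and Ldb1 did not overlap Bcl11a, and the ranges of all later neighbours overlapped. Within libraries Bcl11a was above Klf1 in 5 of 6, Klf1 above Sox6 in 6 of 6 and Gfi1b above Gata1 in 4 of 6. Sox6 was above Gfi1b in only 2 of 6, and its mean rests on replicate 1, at 0.834 CPM per kb. Per kb of gene span, a measure chosen after seeing the data, the HSPC means were 66.2 for Klf1 and 0.0375 for Sox6, with Ldb1 (21.7) above Gfi1b (12.5). On that measure Nfe2 (8.76) and Ldb1 (3.39) still had the highest means in MLL-AF9 cells. Klf1 (0.352) was then above Bcl11a (0.238), and Sox6 (0.00727) was under Gfi1b (0.0256) and Gata1 (0.0174). The order of these genes therefore depends on the divisor.

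No regulator was called between Mir139KO and WT HSPCs. With all 8 libraries, none of the 7 was called by edgeR, DESeq2 or limma-voom, none had an unadjusted p under 0.05 by any of these tools, and 0 of 15056 genes tested were called, a share of 0% (86 had an unadjusted p under 0.05, and DESeq2 and limma-voom called 0). Log2 fold changes of Mir139KO against WT HSPCs were 0.26 ± 0.36 for Nfe2, 0.20 ± 0.45 for Gfi1b, 0.05 ± 0.37 for Ldb1, 0.05 ± 0.43 for Klf1, -0.002 ± 0.40 for Gata1, -0.23 ± 0.19 for Bcl11a and -0.44 ± 0.49 for Sox6 (SE). With the class of the Gm26917 share, under or over 25%, as a covariate, none was called (edgeR adjusted p = 0.995 for each), and 3 of the 7 had an unadjusted p under 0.05, as had 3.56% of all genes. These were Nfe2 (0.28 ± 0.10, SE), Gfi1b (0.26 ± 0.12, SE) and Bcl11a (-0.23 ± 0.10, SE). Among the 4 libraries under 25%, 2 of each genotype, both Mir139KO libraries were above both WT libraries for Gata1, Klf1, Gfi1b, Nfe2 and Ldb1 and below both for Bcl11a and Sox6. Such separations held for 26.8% of all genes upward and 27.8% downward. There 6 of the 7 had an unadjusted p under 0.05, as had 21% of all genes, and none was called, with edgeR adjusted p from 0.165 for Gata1 (0.37 ± 0.09, SE) to 0.301 for Klf1 (0.32 ± 0.15, SE). Among the 4 libraries over 25%, none of the 7 had an unadjusted p under 0.05, and Gata1, for example, was at -0.19 ± 0.15 (SE).

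**Figure D3:**
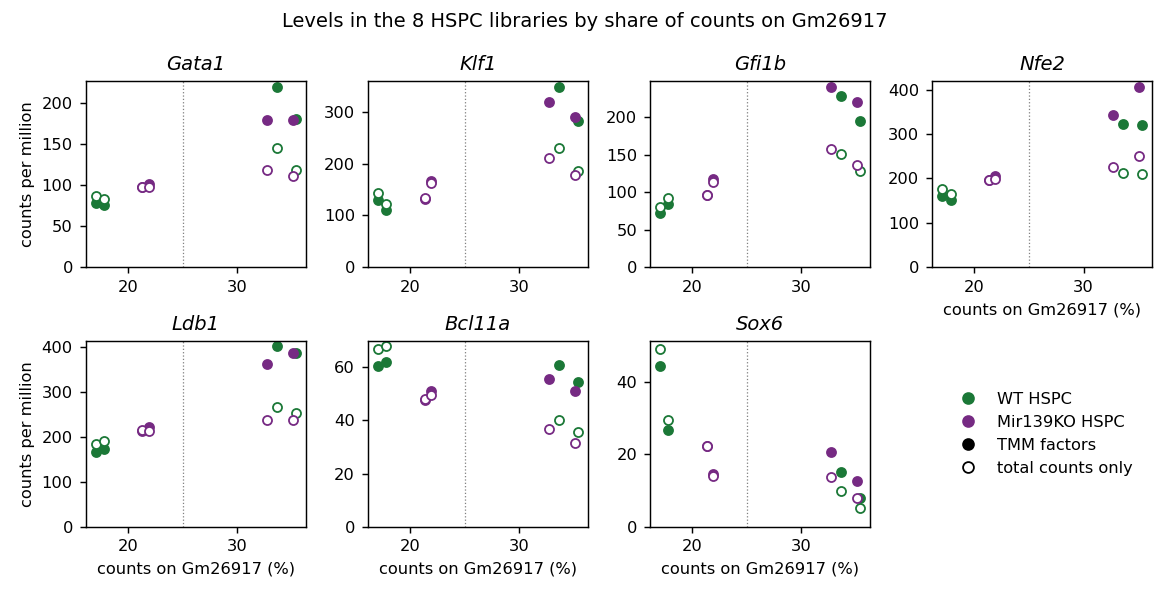
CPM of 7 regulators in the 8 HSPC libraries against the percent of counts on Gm26917, filled for TMM scaling and open for total counts only, with a dotted line at 25%. Gata1, Klf1, Gfi1b, Nfe2 and Ldb1 are higher in all 4 libraries right of the line than in the 4 left of it, and Bcl11a and Sox6 are not higher on either scale.

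Among HSPC libraries, Gata1, Klf1, Gfi1b, Nfe2 and Ldb1 moved together with the Gm26917 share. The split at 25% was chosen with earlier results known and is not a group of the study. The mean over the 4 libraries over 25% was 2.15 times that over the 4 under 25% for Gata1, 2.3 times for Klf1, 2.39 times for Gfi1b, 1.96 times for Nfe2 and 1.98 times for Ldb1. For each of these 5 every library of one kind was above every library of the other, which held for 31.8% of 14547 genes. Bcl11a had a ratio of 1 and Sox6 of 0.522, with overlap in both. With total counts only the ratios were 1.35, 1.44, 1.5, 1.22 and 1.23 for the same 5 genes, 0.618 for Bcl11a and 0.318 for Sox6. On that scale the 5 genes still did not overlap, as held upward for 9.58% of all genes. Bcl11a (31.4 to 40.1 against 47.9 to 68.1 CPM) and Sox6 (5.23 to 13.6 against 14.1 to 49.1 CPM) were then lower in every library over 25%, as were 55.9% of all genes. The gene models of Gata1, Klf1, Gfi1b, Nfe2 and Ldb1 are 51.6 to 61% GC, and those of Bcl11a and Sox6 are 44.8% and 46.1%. Summed markers of mast cells, basophils and eosinophils were 801 to 1440 CPM in the libraries under 25% and 1490 to 1900 CPM in those over 25%, and summed erythroid target genes were 3490 to 4300 and 3260 to 4770 CPM. Summed myeloid markers were 4850 to 10300 and 12200 to 18400 CPM, T cell markers 47.8 to 66.3 and 82.9 to 125 CPM, and B cell markers 1880 to 3150 and 1620 to 6080 CPM. The part of these in the split was not tested. Within the libraries under 25%, the log2 fold change of MLL-AF9 cells against WT HSPCs was -7.93 for Gata1, -6.72 for Klf1, -7.99 for Gfi1b, -0.87 for Nfe2 and -1.98 for Ldb1. Against those over 25% it was -9.34, -8.15, -9.47, -1.96 and -3.24 in the same order, and all 10 values were called.

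Between the vectors, none of the 7 regulators was called by edgeR or limma-voom, where 0.873% of 16503 genes were called by edgeR. Sox6 was higher in every neo culture (12.4, 2.54 and 5 CPM) than in every puro culture (1.78, 0.49 and 1.77 CPM), with a log2 fold change of puro against neo of -2.29 ± 0.77 (SE, edgeR unadjusted p = 0.0221, adjusted p = 0.258). DESeq2 called it (adjusted p = 0.0299). Gata1 was also higher in every neo culture, at 0.295 CPM or more against 0.285 CPM or less, although the nearest cultures had 15 counts each, and its log2 fold change was -1.28 ± 0.71 (SE, edgeR adjusted p = 0.512). Every puro culture was under every neo culture for 8.12% of all genes tested. The other log2 fold changes were 1.15 ± 0.78 for Gfi1b, 0.31 ± 0.62 for Klf1, 0.25 ± 1.19 for Bcl11a, -0.03 ± 0.22 for Ldb1 and -0.002 ± 0.20 for Nfe2 (SE). Klf1 and Bcl11a were lowest in replicates 2 and 5, 1 culture of each vector, in which summed myeloid progenitor and granulocyte markers were 3360 and 3440 CPM against 2220 to 2390 CPM in the other 4.

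The genes around the regulators were grouped in lists chosen with earlier results known, and their counts are set against the 29.4% of all genes called lower in MLL-AF9 cells than in WT HSPCs. Called higher were 5603 of the 17077 genes tested. Of 18 tested partners in complexes and corepressors, 9 were lower, 4 were higher and 5 were not called, with a median log2 fold change of -0.55. Tal1, which nucleates the GATA1 complex with LDB1, was as nearly lost as Gata1, at 175 ± 34.8 CPM in the 4 WT HSPC libraries and 0.212 ± 0.203 CPM in the 6 cultures (SD), with a log2 fold change of -9.70 ± 0.72 (SE). Tcf3 (-2.94), an E protein partner of TAL1, and E2f4 (-2.33), a cell cycle factor used by red cell precursors, were lower. Higher were the E protein gene Tcf12 (2.77), Runx1 (2.24), Rcor1 (1.08) and Bach1 (1.63). The GFI1B corepressor gene Kdm1a averaged 51.5 ± 3.98 CPM (SD, n = 6) in MLL-AF9 cells and 55 ± 3.86 CPM (SD, n = 4) in WT HSPCs and was not called, nor were Hdac1, Hdac2, Ssbp2 and Mafg. Lyl1 and Cbfa2t3 were listed at 0 throughout. With total counts only, 5 partners were lower and 6 higher, where 3128 of all 17077 genes tested were lower and 6747 higher. Lmo2, Ssbp3, Chd4 and Mafk then lost their calls, as they did with the GC correction. Between the vectors, Ssbp2, which stabilizes LDB1, was the only partner called (higher in puro, log2 fold change 2.43 ± 0.28, edgeR adjusted p = 0.0271). The call was lost without MLL-AF9 replicate 1 (2.62, adjusted p = 0.0646), 2 (2.51, adjusted p = 0.115), 3 (2.21, adjusted p = 0.0903), 4 (2.47, adjusted p = 0.113) or 6 (2.499, adjusted p = 0.12), and with replicates 4 and 6 summed (2.49, adjusted p = 0.119).

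Close relatives of the regulators and factors that oppose them moved either way, 4 higher, 4 lower and 6 not called of 14 tested, with a median of -0.27. Gata2, the earlier GATA factor of progenitors and mast cells, was lower (log2 fold change -5.00, from 164 ± 59 to 5.18 ± 4.44 CPM), as were Gata3 (-3.93), Sox13 (-2.82) and Cebpa (-1.42). Nfe2l3, a relative of Nfe2, was higher at 4.14. Gfi1, the myeloid and lymphoid counterpart of Gfi1b, singled out after its values were seen, was higher in MLL-AF9 cells at 161 ± 57.5 CPM (SD, n = 6) than in WT HSPCs at 36.8 ± 5.94 CPM (SD, n = 4), and its log2 fold change was 2.12 ± 0.31 (SE, edgeR adjusted p = 0.000151). Fli1 (2.04), which opposes KLF1 in the choice between megakaryocytes and red cells, and Nfe2l2 (1.00) were also higher. Spi1, the myeloid factor that opposes GATA1, was not called (-0.28 ± 0.27). Cebpa lost its call with total counts only and with the GC correction.

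**Figure D4:**
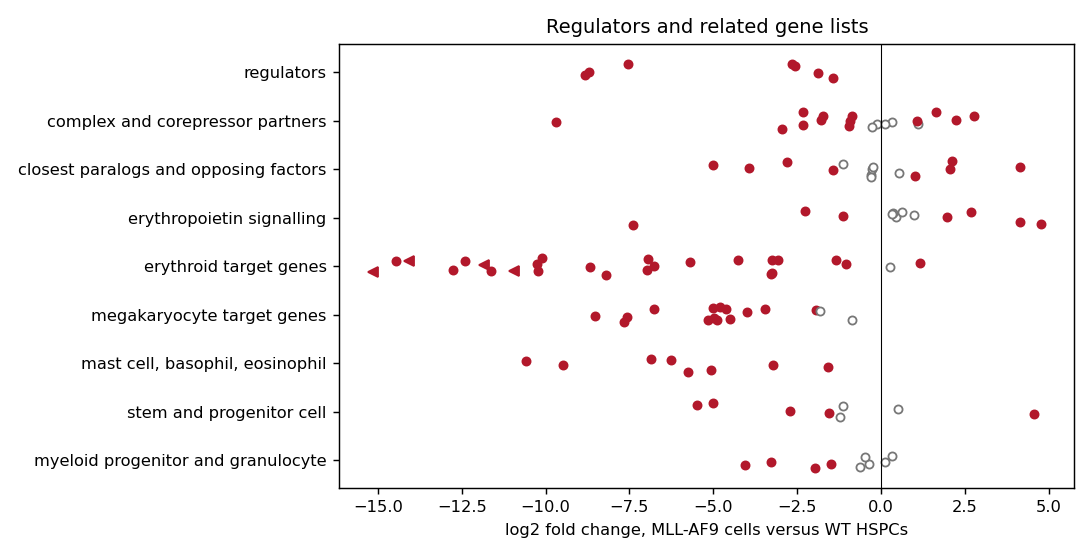
Log2 fold change of MLL-AF9 cells against WT HSPCs for each tested gene of the regulators and 8 lists, filled where the adjusted p was under 0.05. Triangles mark genes at 0 in every MLL-AF9 library, drawn at the bound that 3 counts over the group give, and nearly all erythroid and megakaryocyte target genes lie left of 0 while partners and relatives lie on both sides.

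Erythropoietin signalling, by which red cell progenitors survive, lost its receptor, with Epor at 77.3 ± 39.2 CPM (SD, n = 4) in WT HSPCs and 0.46 ± 0.205 CPM (SD, n = 6) in MLL-AF9 cells (log2 fold change -7.39). Of 12 genes tested, 3 were lower (Epor, Stat5a and Stat5b), 4 were higher and 5 were not called, with a median of 0.54. The higher genes were Trib3 (4.77), an induced kinase relative, the STAT5 target genes Socs2 (4.13) and Cish (2.67), and the kinase gene Pim1 (1.98). Socs2, Cish and Pim1 are induced by other cytokines as well. Stat5b lost its call with total counts only and with the GC correction, and 7 genes were then higher in each. Of all 17077 genes tested, 6747 and 5557 were higher in these 2 settings.

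Of 26 tested erythroid target genes, 24 were lower, with a median log2 fold change of -7.58. Car1, Hbb-bs, Tspo2 and Hba-a2 had no count in any MLL-AF9 library. From 3 counts over those 6 libraries, Car1, a red cell carbonic anhydrase, was at least 36500-fold higher in WT HSPCs, the beta globin gene Hbb-bs at least 17400-fold and Tspo2 at least 3650-fold. Hba-a1, alpha globin, averaged 133 ± 51.4 CPM in WT HSPCs (SD, n = 4) and had at most 1 count in a MLL-AF9 library. Reads of the near-identical globin copies may be split between them. Xpo7, a nuclear export factor of maturing red cells, was higher (1.16), and the mitochondrial iron importer Slc25a37 was not called (0.28). With Car1, Hbb-bs, Tspo2 and Hba-a2 at their bounds of -15.16, -14.09, -11.83 and -10.95, the median was unchanged, since all 4 stay under it. Alas2 was listed at 0 throughout and Ahsp was not found.

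Of 16 megakaryocyte target genes, 14 were lower, with a median of -4.85. The platelet tubulin gene Tubb1 had a log2 fold change of -7.57 and the collagen receptor gene Gp6 of -6.78. Cd226 averaged 4.55 ± 3.36 CPM in WT HSPCs (SD, n = 4) and had at most 2 counts in a MLL-AF9 library. Selp and Clec1b were not called. Between the HSPC genotypes, none of the 26 erythroid and 16 megakaryocyte target genes tested was called, where 0% of all genes were called. Between the vectors only 15 erythroid and 11 megakaryocyte target genes had enough counts to be tested. None of those was called, where 0.873% of all genes were called.

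Some markers of other cells that could be in the HSPC samples moved with the regulators. These were the lists of mast cells, basophils and eosinophils, of B cells and of T cells, while the other lists were mixed. All 8 tested markers of mast cells, basophils and eosinophils were lower in MLL-AF9 cells, and their sum over 10 genes was 801 to 1820 CPM in WT, 1240 to 1900 CPM in Mir139KO and 5.31 to 25.6 CPM in MLL-AF9 libraries. They were led by the basophil protease Prss34 (log2 fold change -10.57), and eosinophil granule genes Prg2 (-6.87) and Epx (-6.26) were lower too. Ms4a2 and Gzmb lost their calls with total counts only. The mast cell markers Cma1 (0.189 CPM) and Tpsb2 (0.0875 CPM) were near 0 in WT HSPCs as well and were not tested. In WT HSPCs the sum came mainly from Prss34 (835 CPM), Mcpt8 (262 CPM) and Prg2 (207 CPM). B cell markers summed to 1620 to 2540, 1940 to 6080 and 10.5 to 30.6 CPM in the same groups, with 8 of 8 tested lower and Ms4a1 and Rag1 at 0 throughout. T cell markers summed to 61.4 to 125, 47.8 to 93.4 and 4.76 to 12.1 CPM, with 7 of 8 lower. Plasmacytoid dendritic cell markers summed to 71.2 to 80.8, 61 to 91.5 and 118 to 265 CPM, with 4 of 5 lower, Tcf4 higher, and Irf8 and Cox6a2 at 0 throughout. Stem and progenitor markers summed to 357 to 505, 473 to 540 and 177 to 1070 CPM, with 4 of 8 lower and Meis1 higher. Myeloid progenitor and granulocyte markers summed to 4850 to 13700, 9820 to 18400 and 2220 to 3440 CPM, with 4 of 9 lower and Itgam, at 6 counts or fewer per library, not tested. The part of these cells in the fall of Gata1, Gata2, Gfi1b or Bcl11a was not tested.

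The genes whose profile over the 14 libraries was most like that of each regulator were found by the root mean square difference of log2 CPM. Each profile was centred on its own mean. The 10965 genes searched were tested against WT HSPCs and had a mean log2 CPM of at least 1 over the 14 libraries, so genes of lower mean level were left out. Klf1 was nearest to Phyhip (0.361) and to the erythropoietin receptor gene Epor (0.407), and Gfi1b to Tmem176b (0.495) and Tspo2 (0.709). Gata1 was nearest to Smo (0.56) and Btnl10 (0.675), Nfe2 to Alkbh4 (0.086) and Rps6ka4 (0.115), and Ldb1 to Irf2bp1 (0.117) and Naa38 (0.133). The nearest profiles to Bcl11a were Pde5a (0.793) and Popdc2 (0.803), and those to Sox6 were Grap2 (0.649) and Arhgap32 (0.718). Among the regulators themselves, Nfe2 and Ldb1 (0.601) and Gata1 and Klf1 (0.739) were the closest pairs, and Nfe2 and Gfi1b (3.71) the farthest.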

How the data were processed

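RNA was isolated with TRIzol, libraries were made with the KAPA RNA HyperPrep kit with RiboErase and run on a NovaSeq. Per the submitters' processing notes, reads were checked with FastQC 0.11.8, aligned to GRCm38 with STAR 2.5.3e and counted with featureCounts 1.6.0. The deposited values are raw counts per gene, and the authors applied no normalization to them. Strand setting and counted feature are not given in the sources used here. In the table, genes inside another gene on either strand are nearly all at 0, so overlapping genes are uncertain. The table also has 10 columns from a different series, which were left aside. The groups and replicate numbers came from the sample titles and the vectors from the descriptions.

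Each comparison was fitted on all genes that reached 10 counts in a number of samples no lower than the size of its smaller group, with TMM factors and the robust quasi-likelihood F test of edgeR 4.0.16 (limma 3.58.1, R 4.3.3). SE was taken as the absolute log2 fold change over the root of the F statistic. Log2 CPM used a prior count of 2. The correction for GC content used, for every sample, an offset from a natural spline (5 degrees of freedom). Gene models came from GENCODE M21 (52403 of 52550 identifiers matched; the authors used M15), and promoter windows from RefSeq. Among the list genes, Fam132b was matched as Erfe through its synonyms. The genes named are the regulators, in each list up to 4 called genes with the largest absolute log2 fold change against WT HSPCs, markers, and 2 nearest profiles per regulator. The values of 1 gene that this rule names are not reported here. Others are named where a count was 5 or fewer, after their values were seen. The members and lists were chosen with earlier results of these data known.

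Counts were simulated with 200 genes changed by 2 on the log2 scale and a dispersion of 0.05. Of these, 196 were called for MLL-AF9 against WT HSPCs (17247 genes) and 195 against Mir139KO HSPCs (17086 genes). Between the genotypes 192 were called (15165 genes), and between the vectors 196 (16767 genes). Unchanged genes called were 10, 9, 8 and 7 in the same order. The simulation held no share classes and no differences between cultures, so it does not give the power of these comparisons. Alternatives were RLE factors, total counts only, the Wald test of DESeq2 1.42.0, limma-voom, other count filters, all samples in a single fit, abundant genes left out, a replicate block, share classes, a GC correction, each vector alone, MLL-AF9 replicates 4 and 6 summed, and each replicate left out. Total-count ranges and genotype p-values within share classes, and Ssbp2 under each alternative, were added after seeing the data. Correlations of deviations for equal replicate numbers ran from -0.579 to 0.642 between the genotypes. Numbers 2 (0.642) and 4 (0.431) are in the same Gm26917 share class in both genotypes. Numbers 1 (-0.561) and 3 (-0.579) are in opposite classes, so these values follow the share class and do not bear on pairing. Between the vectors, numbered within each vector, they were 0.447 for number 1, 0.384 for number 2 and -0.315 for number 3. There numbers 1 and 2 were best matched by their own number. The labels do not state that the numbers mark pairs, so the replicate block was an alternative only.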

Additional observations from a re-analysis of the deposited data

Results flagged for a closer look

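Gata1 in MLL-AF9 replicate 1, a neo culture, stood apart from the other cultures on the CPM scale. It measured 0.779 CPM there against 0.0588 to 0.327 CPM in the other 5, and the gap to the nearest was 0.628 of the whole range. In log2 CPM, replicates 1 to 6 were at -0.274, -1.543, -1.415, -1.887, -3.227 and -1.587. On that scale replicate 5 lay farther from its nearest value than replicate 1 did. The mark on replicate 1 thus depends on the scale. Of 21 groups examined in CPM, this was the only one so marked, and chance marks about 1 in 20.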

How the results depend on the processing

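Gata1, Klf1, Gfi1b, Nfe2 and Ldb1 kept their direction and their call in all 25 alternatives against WT HSPCs and all 24 against Mir139KO HSPCs. Bcl11a kept its direction in all of them and its call in 17 and 12, and Sox6 its call in 24 and 21. The cause of the lost calls was not tested.

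Between the genotypes no regulator was called under any alternative, and several log2 fold changes near 0 changed sign. Gata1 (-0.002) was 0.007 with RLE factors and with DESeq2, 0.094 with limma-voom, 0.006 with no count filter, 0.01 with all samples in a single fit, 0.003 with abundant genes left out, 0.008 with the GC correction, 0.091 with the share class as a covariate and 0.368 in libraries under 25% Gm26917. In libraries over 25%, Klf1 was -0.082, Ldb1 -0.113 and Sox6 0.499. With 1 replicate left out, Gata1 ran from -0.224 to 0.303, Klf1 from -0.188 to 0.362, Ldb1 from -0.152 to 0.267, Gfi1b from -0.042 to 0.498 and Sox6 from -0.716 to 0.058. Over all genes, 1 was called in either share class against 0 in all libraries.

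Between the vectors, the 144 genes called became 1326 with DESeq2 (1 regulator, Sox6), 221 with no count filter, 761 with all samples in a single fit, 5 with MLL-AF9 replicates 4 and 6 summed, and 0 to 990 with 1 replicate left out (990 without replicate 5, 41 without 1, 5 without 4, 3 without 6, 0 without 2 or 3). Nfe2 (-0.002) was 0.011 with total counts only, 0.014 with limma-voom and with no count filter, 0.001 with all samples in a single fit and 0.015 with replicates 4 and 6 summed. Ldb1 was 0.016 and Bcl11a -0.117 with replicates 4 and 6 summed, and Bcl11a was -0.451 with limma-voom. With 1 replicate left out, Nfe2 ran from -0.108 to 0.17, Ldb1 from -0.16 to 0.089 and Bcl11a from -0.211 to 1.314.

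The replicate numbers are not stated to mark pairs. With the replicate block, 9300 genes were called against WT HSPCs, 11455 against Mir139KO HSPCs, 0 between the genotypes and 214 between the vectors, and all 7 regulators stayed called in the comparisons of MLL-AF9 cells with HSPCs. The block turned Gata1 between the genotypes to 0.091, and Nfe2 and Bcl11a between the vectors to 0.013 and -0.341. Own numbers were not the best match for every sample. Gata1, Klf1 and Gfi1b rested on 2 to 89 counts per MLL-AF9 library, so that differences among those cultures are limited by counting error.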
